A study of Mus musculus with 9 samples.

Results

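Necroptosis, pyroptosis and ferroptosis are regulated forms of cell death in which the plasma membrane gives way. The 10 genes described here were chosen by symbol, with earlier results of these data known. They are Ripk1, Ripk3 and Mlkl of necroptosis, Gsdmd, Gsdme, Casp1 and Casp4 of pyroptosis, Casp8, which stands between death receptors and necroptosis, and Acsl4 and Gpx4 of ferroptosis. All 10 were present among the 32285 genes of the count tables. On GRCm38 (GENCODE M21), Casp1 and Casp4 are neighbours at chr9:5298517-5307265 and chr9:5308828-5336783, both on the plus strand, with Ripk1 at chr13:34002363-34037147 (plus), Ripk3 at chr14:55784995-55788865 (minus) and Mlkl at chr8:111311797-111338177 (minus). Casp8 lies at chr1:58795374-58847503 (plus), Gsdmd at chr15:75862327-75867408 (plus), Gsdme at chr6:50188888-50263862 (minus), Acsl4 at chrX:142317993-142390535 (minus) and Gpx4 at chr10:80047166-80056439 (plus). RNA of single nuclei was sequenced from the hearts of 9 wild-type male mice aged 9 to 10 weeks, with 1 library per heart and 3 hearts per group. NS-Sham mice had a thoracotomy without coronary occlusion and received normal saline (NS). NS-I/R mice received saline and underwent ischemia-reperfusion (I/R), in which the left anterior descending coronary artery was closed for 45 min and the heart was then reperfused for 24 h. Enpa-I/R mice underwent the same procedure and received enpatoran (Enpa), an antagonist of the endosomal RNA sensor TLR7. Mice had 2 intraperitoneal injections, at 5 mg/kg each where enpatoran was given, and in the I/R groups the first came 1 h before occlusion. The labels place the second either right after ischemia or 2 h after the first. Sham mice given enpatoran were not analysed here.

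In necroptosis the kinase RIPK1 engages the kinase RIPK3, which phosphorylates MLKL, and MLKL then breaks the plasma membrane. Caspase-8, activated below death receptors, cleaves RIPK1 and RIPK3 and so restrains this route, and it also starts apoptosis. In pyroptosis, inflammasomes activate caspase-1, while caspase-11, the product of mouse Casp4, responds to cytosolic lipopolysaccharide. Both caspases cleave gasdermin D into a pore-forming fragment, and gasdermin E is cleaved by caspase-3. In ferroptosis, ACSL4 supplies the polyunsaturated phospholipids that become peroxidised, and the selenoenzyme GPX4 reduces those peroxides. All of these routes are known as ways in which cells of the reperfused heart can be lost. Most of these proteins act through cleavage, phosphorylation or enzyme activity, which RNA counts do not measure.

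Promoter sequences were taken from RefSeq (GRCm38.p6), as the 250 bases before each gene's start. The motif search covered all 250 bases, and what is printed is the longest stretch outside annotated exons. Of the 10 genes, 9 matched, and Gsdmd was not in that table. The window of Gsdme lay wholly in an exon, so that none of it could be printed. Each window was searched on both strands for 6 motifs: the interferon-stimulated response element (ISRE, GAAA, any 2 bases, GAAA), AP-1 (TGANTCA), C/EBP (TTGCNNAA), NF-kB, heat shock element (HSE, GAANNTTC) and STAT (TTCCNGGAA). Over all 32851 promoters in the table, these motifs occurred in 2.98%, 6.75%, 9.56%, 5.00%, 6.69% and 0.913%, in that order. Of the 9 genes, only Casp4 held an NF-kB match and only Ripk1 held a STAT match, and the ISRE, AP-1, C/EBP and heat shock motifs matched none of the 9. The NF-kB matches of Casp4 began 93, 92 and 39 bases before the start at base 5308849, the first pair overlapping on the plus strand and the last on the minus strand. The STAT matches of Ripk1 began 108 and 11 bases before the start at base 34002874, the farther of them in an exon and so outside the printed stretch. The windows shown are those of the genes with a match and those of Casp8 and Acsl4, which held none and which passed the test in several classes of nuclei. Capitals mark the matches.
Casp4 (chr9:5308599-5308827, plus strand): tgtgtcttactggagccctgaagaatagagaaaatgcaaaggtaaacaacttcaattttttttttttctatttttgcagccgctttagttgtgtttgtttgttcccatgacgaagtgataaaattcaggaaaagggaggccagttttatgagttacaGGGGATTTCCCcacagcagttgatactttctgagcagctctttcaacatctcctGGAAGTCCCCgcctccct
Ripk1 (chr13:34002795-34002873, plus strand): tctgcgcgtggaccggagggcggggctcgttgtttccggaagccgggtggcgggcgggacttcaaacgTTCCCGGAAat
Casp8 (chr1:58802252-58802501, plus strand): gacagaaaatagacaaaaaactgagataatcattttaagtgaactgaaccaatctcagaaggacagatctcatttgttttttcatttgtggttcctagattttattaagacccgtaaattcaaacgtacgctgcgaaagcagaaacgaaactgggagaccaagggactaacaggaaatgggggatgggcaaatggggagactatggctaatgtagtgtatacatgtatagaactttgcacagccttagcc
Acsl4 (chrX:142390536-142390785, minus strand): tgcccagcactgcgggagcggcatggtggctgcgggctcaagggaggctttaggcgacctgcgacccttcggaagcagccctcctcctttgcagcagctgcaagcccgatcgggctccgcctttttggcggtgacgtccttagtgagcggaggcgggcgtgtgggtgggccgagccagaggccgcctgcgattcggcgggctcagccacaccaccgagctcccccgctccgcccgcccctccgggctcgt
A match describes letters in these windows and is not a measured binding site.

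The count tables held 56766 barcodes with between 19651794 and 38970153 unique molecular identifiers (UMIs, each a counted RNA molecule) per library, and 41979 nuclei passed the filters, with a median of 2365 to 3263.5 UMIs per nucleus. The nuclei formed 27 clusters, of which all but 1 were named from marker genes, and the 7 classes that had 25 or more nuclei in each library were tested. The deepest class, cardiomyocyte-like nuclei, held 8070718 to 16828029 UMIs in a library, and the shallowest tested in all groups, lymphatic endothelial-like nuclei, 143380 to 325857. Across libraries, 425 of 56340 barcode sequences (0.754%) occurred more than 1 time. Levels are in CPM, the usual unit in which the UMIs of a gene are expressed relative to all UMIs of that class in 1 library, scaled by edgeR's TMM factors. A gene passed the test when the Benjamini-Hochberg adjusted p of edgeR's quasi-likelihood test, over all genes of that class and contrast, was under 0.05. Nothing beyond the labels shows how independent the 3 hearts of a group were, and p-values measure the spread between these libraries. NS-I/R replicate 3 stood apart: among the 18 results in classes of nuclei in which 1 of the 10 genes passed the test after I/R, it was the NS-I/R library nearest to NS-Sham in 15. Values with and without it are therefore given. Since it was singled out in these same results, larger changes without it follow from that choice and support nothing.

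In the sham-operated heart, 7 of the 10 genes had their lowest class mean in CPM in cardiomyocyte-like nuclei, all but Ripk3, Gsdme and Casp1. CPM is relative to all UMIs of a class. The NS-Sham libraries had a median of 6455 to 9738 UMIs per cardiomyocyte-like nucleus, beside 1616 to 1856 per endothelial-like nucleus. At full depth, a Gpx4 UMI was found in 35.3% of cardiomyocyte-like nuclei, beside 24.7% of smooth muscle-like nuclei, the next class. An Acsl4 UMI was found in 14.2%, beside 8.23% of endothelial-like nuclei. Casp8 stood at 1.34 ± 0.469 CPM (SD, n = 3) in cardiomyocyte-like nuclei and at 216 ± 45.3 in macrophage-like nuclei, the highest class. Between these, its level was 83.8 ± 11.3 in endothelial-like, 70.9 ± 32.8 in lymphatic endothelial-like, 28.6 ± 7.33 in pericyte-like, 21.6 ± 5.78 in fibroblast-like and 10.9 ± 3.78 in smooth muscle-like nuclei. Libraries of neighbouring classes in that order overlapped for endothelial-like with lymphatic endothelial-like nuclei and for pericyte-like with fibroblast-like nuclei, and did not overlap otherwise. These orders describe classes that were themselves made by clustering, and no test was run on them.

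The necroptosis genes differed in where they were found. Ripk1, the kinase at the head of the route, was detected in every class, from 17.2 ± 0.940 CPM in cardiomyocyte-like to 110.5 ± 23.5 CPM in macrophage-like nuclei of NS-Sham. Ripk3 was scarce in NS-Sham: its mean was 8.17 ± 14.1 CPM in lymphatic endothelial-like (3 UMIs, all in replicate 3), 3.20 ± 1.33 in endothelial-like, 1.53 ± 1.48 in macrophage-like and 0.0812 ± 0.0704 in cardiomyocyte-like nuclei. Smooth muscle-like nuclei of NS-Sham held no Ripk3 UMI. Mlkl, the executioner, was highest in lymphatic endothelial-like (52.1 ± 27.4 CPM) and endothelial-like nuclei (43.8 ± 1.88), whose libraries overlapped, and stood at 0.791 ± 0.219 CPM in cardiomyocyte-like nuclei. In cardiomyocyte-like nuclei, Ripk3 and Mlkl thus rested on 3 and 25 UMIs over the 3 NS-Sham libraries.

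The pyroptosis caspases and gasdermin D were also mostly outside cardiomyocytes. Casp1 was a macrophage transcript here, at 42.1 ± 12.3 CPM in macrophage-like nuclei of NS-Sham against 6.68 ± 1.27 in endothelial-like nuclei, the next class, with no overlap of libraries. Casp4 stood at 93.7 ± 31.7 CPM in lymphatic endothelial-like, 82.9 ± 12.1 in macrophage-like and 73.6 ± 11.5 in fibroblast-like nuclei, each overlapping its neighbour, and at 0.953 ± 0.303 in cardiomyocyte-like nuclei. Gsdmd was highest in macrophage-like nuclei at 51.5 ± 8.55 CPM and stood at 0.456 ± 0.209 in cardiomyocyte-like nuclei. Gsdme departed from this: it stood at 9.49 ± 2.29 CPM in cardiomyocyte-like nuclei and was lowest in endothelial-like nuclei, at 3.57 ± 1.67. Gsdme overlaps Mpp6 on the opposite strand and Ripk1 overlaps Serpinb6a in the same way, and without the counting settings their reads cannot be told apart.

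The ferroptosis genes were found in every class. Acsl4 ran from 23.1 ± 1.12 CPM in cardiomyocyte-like to 145.5 ± 28.0 in macrophage-like nuclei of NS-Sham. Gpx4 was the most even of the 10: its class means in NS-Sham lay between 61.6 ± 21 CPM in cardiomyocyte-like and 98.3 ± 13.5 in lymphatic endothelial-like nuclei, and every class overlapped its neighbour. A processed copy, Gpx4-ps2, is annotated, and reads of near-identical copies may be split between them.

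**Figure D1:**
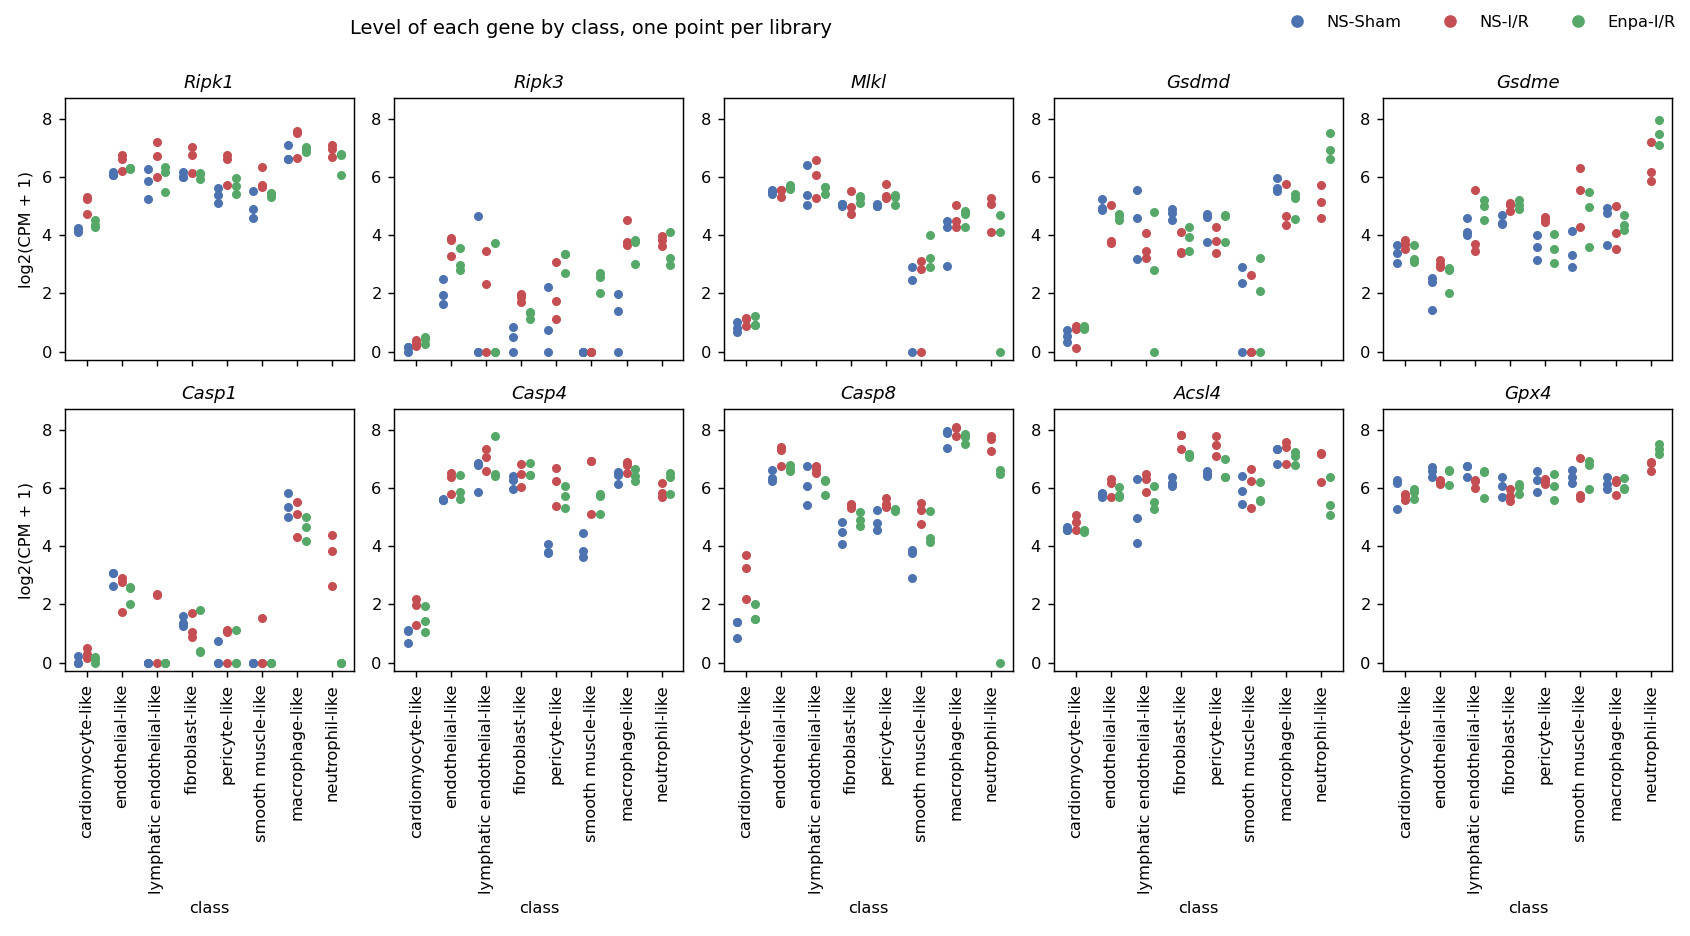
Level of each of the 10 genes by class, as log2(CPM + 1) on the vertical axis, with 1 point per library and colours for the 3 groups. Casp8, Mlkl, Gsdmd and Casp4 sit near the bottom of the scale in cardiomyocyte-like nuclei and far higher in most other classes, while Gpx4 is at about the same height in all of them. Neutrophil-like nuclei are shown for the I/R groups only.

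The first contrast, NS-I/R against NS-Sham, shows what differed in the saline-treated heart after ischemia and reperfusion. In sums over every nucleus of a library, 6 of the 10 genes rose, namely Ripk1, Ripk3, Gsdme, Casp4, Casp8 and Acsl4, and none fell. Ripk3 went from 0.695, 0.812 and 1.20 CPM to 4.30, 3.40 and 3.86 (log2 fold change 2.11, SE 0.26, edgeR adjusted p = 1.49e-04), and Casp8 from 33.6, 28.8 and 23.2 to 62.6, 56.4 and 49.3 (0.97, SE 0.15, adjusted p = 6.52e-04). The changes of Acsl4, Ripk1, Casp4 and Gsdme were 0.90, 0.82, 0.80 and 0.76, and none of these 6 overlapped between groups. The share of all genes without overlap is not given beside that count. Over all 18066 genes tested in those sums, 47.8% passed the test in either direction and 23.9% rose. The median log2 fold change of the 10 genes was 0.78, beside 0.0017 over all genes. Because the 10 were chosen with earlier results of these data known, nothing is concluded from that difference. In sums over all nuclei, a change in the mix of cells and a change of RNA per cell cannot be told apart. Neutrophil-like nuclei made up 0.0400% of NS-Sham nuclei, 9.04 ± 1.51% of NS-I/R nuclei and 2.77 ± 1.95% of Enpa-I/R nuclei.

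By class, the same contrast gave calls for 7 of the 10 genes. The count was 3 of 7 genes tested in cardiomyocyte-like, 4 of 10 in endothelial-like, 5 of 8 in fibroblast-like, 4 of 8 in pericyte-like, 1 of 10 in macrophage-like, 1 of 6 in smooth muscle-like and 0 of 6 in lymphatic endothelial-like nuclei. The share of all genes that passed was 45.3%, 34.1%, 46.7%, 23.6%, 34.6%, 6.4% and 13.6% in that order, so the counts in cardiomyocyte-like, endothelial-like and fibroblast-like nuclei lay near that background. In lymphatic endothelial-like nuclei 1 gene had an unadjusted p under 0.05, and DESeq2 also called 0. Mlkl, Casp1 and Gpx4 passed in no class.

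**Figure D2:**
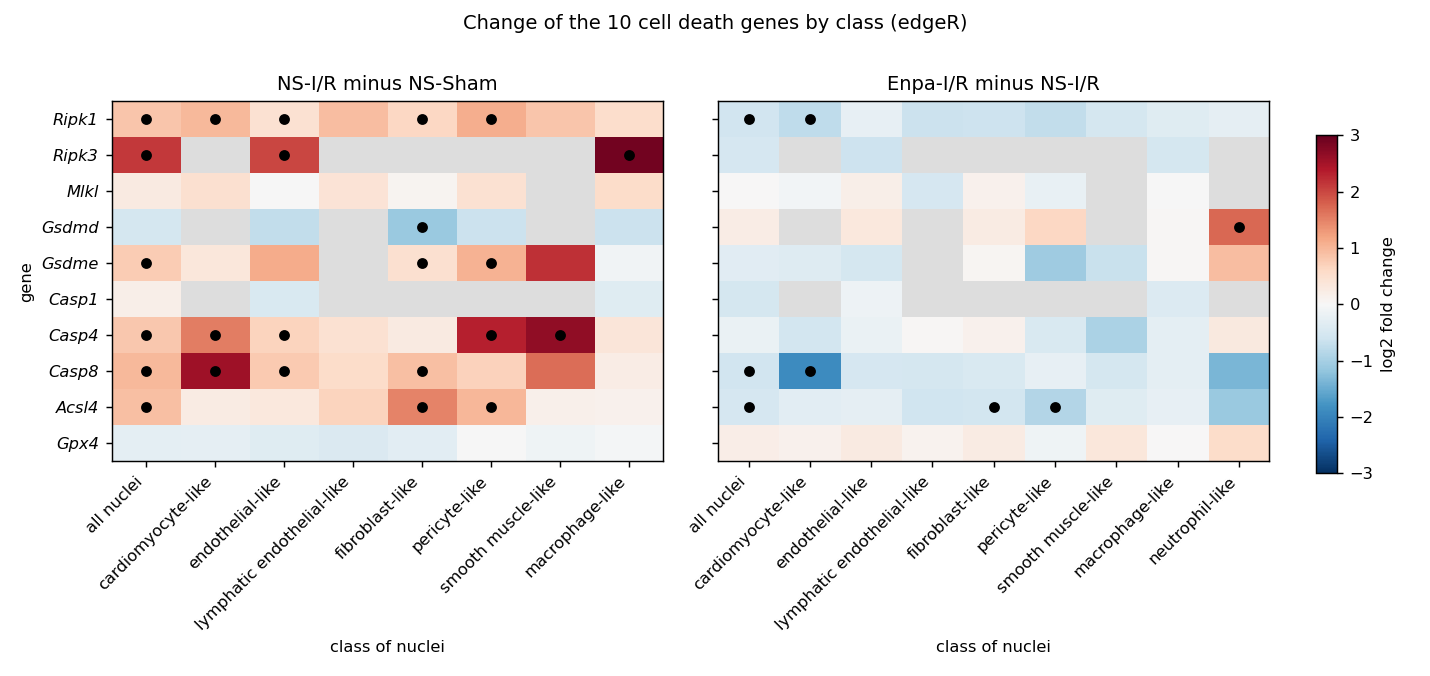
Log2 fold change of each gene (rows) in each class (columns), with I/R minus sham (saline) in the left panel and enpatoran minus saline (I/R) in the right panel, on a colour scale from -3 to 3. Black dots mark an edgeR adjusted p under 0.05 and grey cells were not tested. Most dots on the left are on red cells, with Gsdmd in fibroblast-like nuclei on blue, and most dots on the right are on blue cells, with Gsdmd in neutrophil-like nuclei on red. Both panels use the NS-I/R libraries.

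Casp8, the protease that both starts apoptosis and restrains necroptosis, had its largest passing log2 fold change in cardiomyocyte-like nuclei. Classes were not tested against each other, and its NS-Sham level was lowest in cardiomyocyte-like nuclei. There its level was 0.803, 1.63 and 1.60 CPM in NS-Sham replicates 1 to 3 and 12, 8.59 and 3.59 CPM in NS-I/R. All 3 NS-I/R libraries lay above all 3 NS-Sham libraries, with replicate 3 the lowest of NS-I/R. The log2 fold change was 2.54 (SE 0.46, edgeR adjusted p = 0.00160), and it was 2.88 (adjusted p = 2.92e-05) without NS-I/R replicate 3. The counts behind it were 47 UMIs over the NS-Sham libraries and 257 over the NS-I/R libraries. In endothelial-like nuclei Casp8 went from 96.5, 80.2 and 74.8 CPM to 158, 169 and 107, and in fibroblast-like nuclei from 27.5, 21.3 and 16.0 to 38.5, 42.6 and 41.2. Neither pair of groups overlapped, and the log2 fold changes were 0.79 (SE 0.16, adjusted p = 0.00290) and 0.91 (SE 0.20, adjusted p = 0.00266). In macrophage-like nuclei, where Casp8 was highest, it stood at 246, 238 and 164 CPM in NS-Sham and 266, 275 and 221 in NS-I/R. These groups overlapped, and the gene did not pass the test there. Smooth muscle-like nuclei held Casp8 at 6.55 to 13.6 CPM in NS-Sham and 25.8 to 43.6 in NS-I/R. For pericyte-like nuclei the ranges were 22.5 to 36.8 and 39.8 to 49.3 CPM. Neither pair overlapped, and Casp8 did not pass in either class.

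RNA of neutrophils also differed between the groups in several classes of nuclei. The summed level of 8 neutrophil markers in cardiomyocyte-like nuclei was 0.724 to 2.75 CPM in NS-Sham, with Retnlg at 0, and 28.7 to 82.3 CPM in NS-I/R, with all 8 detected. It was 19.3 to 34.2 CPM in Enpa-I/R. Per nucleus in NS-I/R, Casp8 in cardiomyocyte-like nuclei reached 29.2% of its level in neutrophil-like nuclei, while S100a8 reached 7.25%, S100a9 6.13%, Csf3r 2.74% and Itgam 5.50%. Itgam was not particular to neutrophil-like nuclei, since macrophage-like nuclei held it at 110% of their level. Against macrophage-like nuclei, Casp8 stood at 0.0875 and 0.628 UMIs per nucleus in cardiomyocyte-like and macrophage-like nuclei of NS-I/R, and the macrophage marker Mrc1 at 0.0770 and 6.89. The 9 cardiomyocyte markers summed to between 68240 and 75520 CPM in NS-Sham libraries, between 39700 and 55090 in NS-I/R libraries and between 63920 and 65990 in Enpa-I/R libraries. In the other classes the neutrophil sum also rose from NS-Sham to NS-I/R, from 0.804 to 2.34 up to 118 to 254 CPM in endothelial-like, from 3.70 to 4.12 up to 70.3 to 180 in fibroblast-like, from 1.27 to 1.84 up to 104 to 255 in pericyte-like, and from 74.1 to 109 up to 509 to 1103 in macrophage-like nuclei. Beyond the levels given, the part of this RNA in each gene's change was not tested.

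Ripk1 rose in 4 classes. In cardiomyocyte-like nuclei it went from 16.2, 17.7 and 17.8 CPM in NS-Sham to 38.5, 37.1 and 25.5 in NS-I/R, with no overlap (log2 fold change 0.97, SE 0.17, edgeR adjusted p = 0.00149). In pericyte-like nuclei it went from 48.2, 33.1 and 40.4 CPM to 96.3, 108 and 52.5, again with no overlap (log2 fold change 1.10, SE 0.27, adjusted p = 0.00739). The pericyte call was lost without NS-Sham replicate 2 (adjusted p = 0.0574). In fibroblast-like nuclei the level was 63.6, 63.5 and 71.6 CPM in NS-Sham and 129, 107 and 69.8 in NS-I/R. Replicate 3 of NS-I/R lay inside the NS-Sham range, so these groups overlapped, although the gene passed (log2 fold change 0.62, SE 0.19, adjusted p = 0.0177). Endothelial-like nuclei had the smallest of the 4 changes, from 66.7, 70.5 and 66.4 CPM to 98.4, 108 and 72.3 (log2 fold change 0.45, SE 0.14, adjusted p = 0.0271). The endothelial call was lost with the 6 libraries of the contrast alone (adjusted p = 0.057), without any 1 of the NS-Sham libraries or of NS-I/R replicates 1 and 2 (adjusted p 0.0607 to 0.125), and the fibroblast call without NS-I/R replicate 1 or 2 or NS-Sham replicate 1 or 2 (adjusted p 0.0502 to 0.0785). Without NS-I/R replicate 3 the changes were 1.12 in cardiomyocyte-like, 1.35 in pericyte-like, 0.84 in fibroblast-like and 0.60 in endothelial-like nuclei.

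Ripk3, the kinase that activates MLKL, rose from near 0. In macrophage-like nuclei it had 1, 3 and 0 UMIs in the NS-Sham libraries (1.65, 2.95 and 0 CPM) and 25, 13 and 15 in NS-I/R (21.9, 12.6 and 11.8 CPM). Every NS-I/R library lay above every NS-Sham library, and the log2 fold change was 2.89 (SE 0.63, edgeR adjusted p = 0.00232), or 3.07 without NS-I/R replicate 3. Per nucleus in NS-I/R, Ripk3 in macrophage-like nuclei stood at 172% of its neutrophil level, and the neutrophil marker Csf3r at 14.9%. In endothelial-like nuclei Ripk3 went from 2.81, 2.10 and 4.68 CPM to 14, 13.3 and 8.78, without overlap (log2 fold change 2.00, SE 0.37, adjusted p = 0.00141, and 2.19 without NS-I/R replicate 3). Neutrophil-like nuclei themselves held 13.2 ± 1.62 CPM of Ripk3 in NS-I/R. In pericyte-like nuclei NS-Sham held 3 UMIs and NS-I/R 10, a ratio of 3.98 (exact 95% binomial interval 1.03 to 22.5, counting error only), and cardiomyocyte-like nuclei held 3 and 7 UMIs. Those sums were too small to enter the fit.

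Mlkl, the last step of necroptosis, passed in no class. Its level in endothelial-like nuclei was 41.8, 45.5 and 44.0 CPM in NS-Sham and 46.5, 38.3 and 46.3 in NS-I/R, and in cardiomyocyte-like nuclei 1.03, 0.603 and 0.739 against 1.18, 0.859 and 1.23. The groups overlapped in both classes. Pericyte-like libraries of the 2 groups did not overlap for Mlkl, at 33.0, 31.1 and 31.3 CPM before 53.4, 37.4 and 39.7 (NS-Sham, then NS-I/R). Mlkl missed the threshold there too, which does not show that its level was unchanged. The cardiomyocyte values rested on 25 and 34 UMIs, so that small changes were not detectable at this depth.

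Casp4, which encodes caspase-11, rose in both mural classes. In pericyte-like nuclei it went from 12.7, 15.9 and 12.9 CPM in NS-Sham to 74.2, 102 and 40.7 in NS-I/R, with every NS-I/R library above every NS-Sham library. The log2 fold change was 2.33 (SE 0.34, edgeR adjusted p = 1.46e-04), and 2.60 (adjusted p = 4.96e-07) without NS-I/R replicate 3. In smooth muscle-like nuclei it went from 20.7, 11.3 and 13.1 CPM to 121, 121 and 33.5, again without overlap (log2 fold change 2.65, SE 0.51, adjusted p = 0.00849, and 3.05 without replicate 3). It was the only gene of the 10 that passed in smooth muscle-like nuclei, where NS-Sham held 14 of its UMIs and NS-I/R 116. Smooth muscle-like nuclei had a neutrophil marker sum of 0 to 4.14 CPM in NS-Sham and 71.1 to 317 in NS-I/R. Per nucleus, Casp4 in NS-I/R stood at 192% of its neutrophil level in pericyte-like and 392% in smooth muscle-like nuclei, while S100a8 stood at 4.81% and 7.67%.

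Casp4 also passed in cardiomyocyte-like and endothelial-like nuclei. Its level in cardiomyocyte-like nuclei was 1.15, 0.603 and 1.11 CPM in NS-Sham and 3.54, 2.97 and 1.43 in NS-I/R, from 29 and 85 UMIs (log2 fold change 1.53, SE 0.48, edgeR adjusted p = 0.0239). That call was lost without NS-I/R replicate 1 (adjusted p = 0.0826), NS-I/R replicate 2 (0.0692) or NS-Sham replicate 2 (0.103). Leaving out NS-I/R replicate 3 gave a change of 1.83. In endothelial-like nuclei the level went from 47.8, 47.4 and 47.2 CPM to 81.6, 89.4 and 54.1 (log2 fold change 0.66, SE 0.22, adjusted p = 0.0354). It was lost within cluster 0 of these nuclei, where the change was 0.12 (adjusted p = 0.803), with at least 1000 genes required per nucleus (0.0538), without any NS-Sham library or without NS-I/R replicate 1 or 2 (adjusted p 0.0895 to 0.140). Fibroblast-like and macrophage-like nuclei, where sham levels were already high, showed overlapping groups and no call: 61.2, 75.9 and 83.9 against 113, 88.7 and 64.2 CPM in fibroblast-like nuclei.

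Gsdmd, whose product forms the pyroptotic pore, was the only gene of the 10 to fall in any class after I/R. In fibroblast-like nuclei it went from 22.2, 28.9 and 26.3 CPM in NS-Sham to 9.81, 9.39 and 16.4 in NS-I/R. The groups did not overlap, and the gene fell by 1.12 on the log2 scale (SE 0.27, edgeR adjusted p = 0.00471), or fell by 1.44 without NS-I/R replicate 3. In endothelial-like nuclei the values were 29.7, 36.9 and 28.5 CPM in NS-Sham and 12.2, 13 and 32.1 in NS-I/R. Replicates 1 and 2 of NS-I/R lay below every NS-Sham library there and replicate 3 lay among them, and the gene did not pass. Macrophage-like nuclei showed the same split, with 61.1, 48.2 and 45.0 CPM in NS-Sham and 24.5, 19.4 and 53.4 in NS-I/R.

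Gsdme, the gasdermin cut by caspase-3, rose in fibroblast-like nuclei from 20.5, 25.1 and 20.1 CPM to 31.6, 27.7 and 33.5 (log2 fold change 0.48, SE 0.16, edgeR adjusted p = 0.0295) and in pericyte-like nuclei from 15.2, 7.95 and 11 to 20.9, 23.4 and 23.6 (log2 fold change 1.05, SE 0.37, adjusted p = 0.0465). Neither pair of groups overlapped, yet both calls stood near the threshold. The pericyte call was lost with the replicate number as a block (adjusted p = 0.0664), with DESeq2 (0.146) and without any 1 library other than NS-Sham replicate 1 (0.0532 to 0.252). The fibroblast call was lost without NS-I/R replicate 1 or 3 or NS-Sham replicate 1 or 3 (0.0541 to 0.0952). Casp1 passed nowhere, and in macrophage-like nuclei it stood at 31.4, 39.4 and 55.6 CPM in NS-Sham and 33.3, 44.5 and 18.8 in NS-I/R, with overlapping groups.

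Acsl4, the ferroptosis driver, rose in both fibroblast-like and pericyte-like nuclei. In fibroblast-like nuclei it went from 65.3, 82.0 and 71.0 CPM in NS-Sham to 227, 227 and 162 in NS-I/R, which made this the highest class in NS-I/R by mean (205 ± 37.8), overlapping pericyte-like nuclei. The log2 fold change was 1.49 (SE 0.15, edgeR adjusted p = 1.27e-05) and 1.62 without NS-I/R replicate 3. For pericyte-like nuclei the values went from 88.7, 84.8 and 93.8 CPM to 218, 179 and 136 (log2 fold change 1.00, SE 0.20, adjusted p = 0.00210, and 1.16 without replicate 3). Neither pair of groups overlapped. In cardiomyocyte-like nuclei Acsl4 stood at 22.7, 22.3 and 24.4 CPM in NS-Sham and 27.1, 32.3 and 22.7 in NS-I/R, with overlap and no call.

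Gpx4, which opposes ferroptosis, passed in no class. Its level in cardiomyocyte-like nuclei was 75.8, 37.5 and 71.5 CPM in NS-Sham and 51.3, 46.6 and 54.1 in NS-I/R. NS-Sham replicate 2 was the lowest of the 6 libraries, and its own group spread over a wider range than the difference between group means. In fibroblast-like nuclei Gpx4 stood at 66.5, 51.0 and 81.3 CPM against 45.6, 51.3 and 61.1, also overlapping. In endothelial-like nuclei it stood at 94.4, 81.2 and 104 CPM in NS-Sham and 72.3, 75.7 and 69.6 in NS-I/R, with no overlap, yet missed the threshold (log2 fold change -0.36, SE 0.15, edgeR adjusted p = 0.0901). Across the 7 classes its log2 fold change lay between -0.43 and -0.0036.

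**Figure D3:**
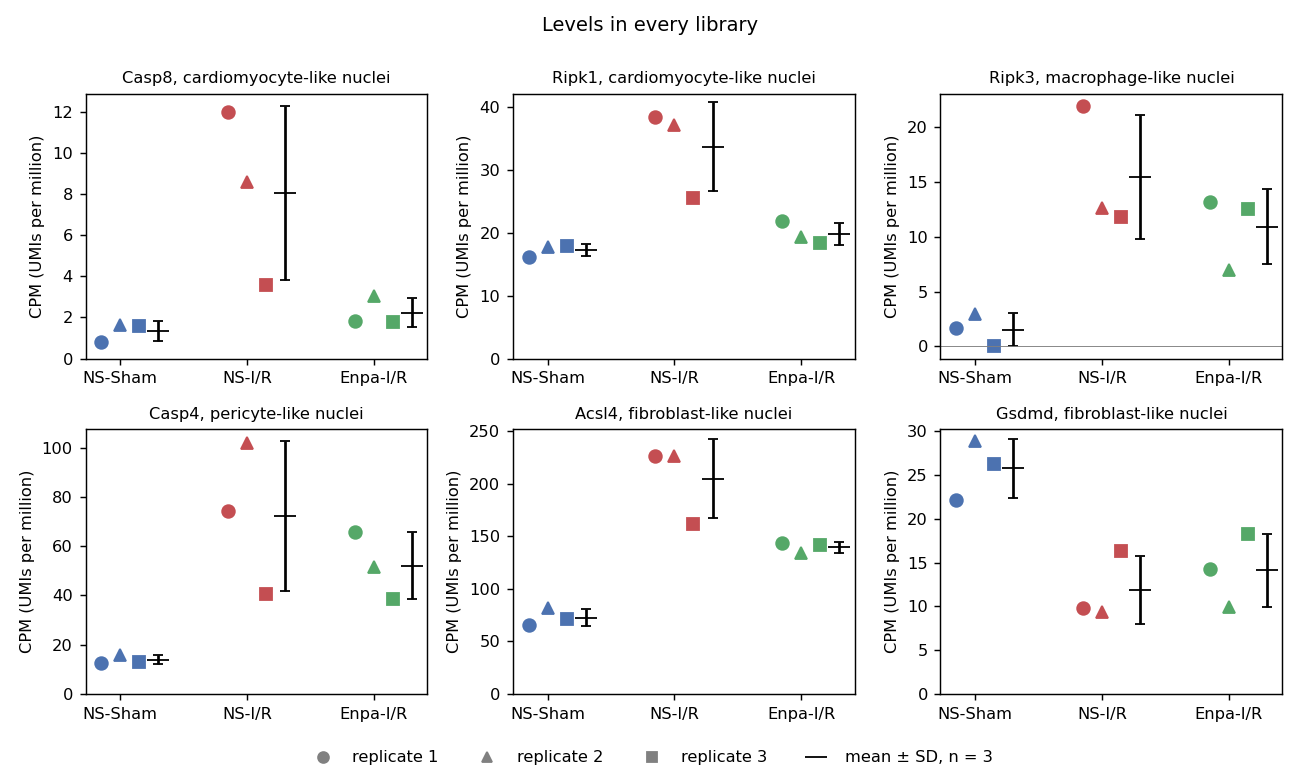
CPM in each of the 9 libraries for Casp8 and Ripk1 in cardiomyocyte-like, Ripk3 in macrophage-like, Casp4 in pericyte-like and Acsl4 and Gsdmd in fibroblast-like nuclei; symbols give the replicate number and bars the mean ± SD of 3 libraries. NS-I/R replicate 3 (square) is nearest to NS-Sham in each panel. In the Acsl4 panel all Enpa-I/R libraries, at 134 to 144 CPM, lie between the other groups.

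The clusters that made up a class differed between groups, so a class value can reflect which of its states were present. In NS-Sham, cluster 2 held 71.3% of cardiomyocyte-like nuclei, while in NS-I/R clusters 7 and 8 held 49.4% and 31.3%, and in Enpa-I/R clusters 2, 8 and 7 held 32.3%, 29.8% and 18.4%. Fibroblast-like nuclei were led by cluster 1 in NS-Sham (76.9%), by cluster 4 in NS-I/R (46.5%) and by clusters 1 and 4 in Enpa-I/R (38.5% and 35.5%). Macrophage-like nuclei were led by cluster 5 in NS-Sham (93.6%) and Enpa-I/R (61.9%) and by cluster 15 in NS-I/R (52.7%), and endothelial-like nuclei by cluster 0 in NS-Sham (58.7%) and Enpa-I/R (36.0%) and by cluster 12 in NS-I/R (26.3%). Pericyte-like, smooth muscle-like and lymphatic endothelial-like nuclei were 1 cluster each. Fits within 1 cluster used fewer nuclei: cluster 8 had 113 NS-Sham nuclei and 919 NS-I/R nuclei, and cluster 1 had 2119 and 715. Within cluster 8 the I/R change of Casp8 was 0.36 and that of Ripk1 -0.085, and within cluster 1 that of Acsl4 was 0.52 and that of Gsdmd -0.22, none of which passed (edgeR adjusted p 0.874, 0.923, 0.0611 and 0.628). Casp8 also missed the threshold at 0.36 within cluster 0 of the endothelial-like nuclei (adjusted p = 0.166) and at 0.28 within cluster 1 (0.512). Ripk1 stood at 0.38 within cluster 0 (0.191) and 0.42 within cluster 1 (0.1199), and Gsdme at -0.11 within cluster 1 (0.839). Ripk3 in macrophage-like and endothelial-like nuclei had no value within a cluster. Casp4 in both mural classes and Acsl4 in pericyte-like nuclei come from classes of 1 cluster.

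After each nucleus was thinned to 1000 UMIs, the share of nuclei with a UMI moved the same way as the CPM for these genes. A Casp8 UMI was found in 0.179%, 0.652% and 0.237% of cardiomyocyte-like nuclei, for NS-Sham, then NS-I/R, then Enpa-I/R. In that order, a Casp4 UMI was found in 1.52%, 7.08% and 3.02% of pericyte-like nuclei, and an Acsl4 UMI in 5.93%, 14.6% and 11.2% of fibroblast-like nuclei. The Casp8 share is close to that of very few nuclei, and no class that should lack Casp8 was at hand to set its background. For Casp4 in cardiomyocyte-like nuclei the thinned shares were 0.177%, 0.182% and 0.238%, an order that differs from the CPM, and nothing is read from it.

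The other genes of these pathways were counted in 4 lists of 64 genes that leave out the 10. Over all nuclei, 31 of 61 tested rose after I/R and 4 fell, beside 47.8% of all genes in either direction. Of 13 ferroptosis-driving genes tested 8 rose, among them Hmox1, a heme oxygenase that frees iron (1.53 to 31.3 CPM, log2 fold change 4.31), Ptgs2, encoding cyclooxygenase-2 (3.23 to 25.3 CPM, 2.98), and Por, an oxidoreductase (73.6 to 157 CPM, 1.09). Of 17 ferroptosis-opposing genes 11 rose and 1 fell. Those that rose included Txnrd1, a thioredoxin reductase (42.0 to 255 CPM, 2.60), Gclm, a subunit of the glutathione-synthesis enzyme (20.4 to 80.1 CPM, 1.97), and Gsr, glutathione reductase (37.6 to 144 CPM, 1.94). Genes listed as driving and as opposing ferroptosis thus rose side by side, while Gpx4 did not pass.

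Of 17 necroptosis and death receptor genes over all nuclei, 6 rose and 1 fell, beside 47.8% of all genes in either direction. Tnfaip3, which encodes the ubiquitin editor A20, rose by a log2 fold change of 1.98 (3.18 to 12.6 CPM), Tnfrsf1a, the main TNF receptor, by 1.58 (11.9 to 35.8 CPM) and Birc3, an inhibitor of apoptosis protein, by 1.13 (44.0 to 96.5 CPM). Of 14 pyroptosis genes tested, 6 rose and 2 fell, beside the same 47.8%. Il1b, the cytokine released through gasdermin pores, rose by 5.41 (0.496 to 20.3 CPM), Nlrp3, the inflammasome sensor, by 2.89 (1.93 to 14.6 CPM) and Pycard, its adaptor, by 2.09 (4.56 to 19.3 CPM).

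In cardiomyocyte-like nuclei 20 of 51 list genes tested rose and 4 fell, beside 45.3% of all genes in either direction. The death receptor genes Tnfrsf1a (2.07 to 15.7 CPM, log2 fold change 2.95) and Fas (21.1 to 53.5 CPM, 1.34, with overlapping groups) rose there alongside Casp8. Hmox1 (5.56), Txnrd1 (2.93), Gclm (2.59) and Pycard (2.45) rose as well. In fibroblast-like nuclei 23 of 53 rose and 8 fell, beside 46.7% of all genes in either direction, with Ptgs2 at 4.13 (6.16 to 101 CPM) and Gch1, whose product makes an antioxidant cofactor, at 3.00 (5.44 to 46.2 CPM). In macrophage-like nuclei 20 of 53 rose and 10 fell, beside 34.6%. There Slc7a11, the cystine importer that feeds glutathione synthesis, rose by 5.65 (3.74 to 207 CPM) and Gsr by 3.48 (40.4 to 456 CPM), while Slc40a1, the iron exporter ferroportin, fell by 2.63 (88.3 to 13.6 CPM) and the inflammasome sensor Nlrc4 fell by 1.88 (132 to 35.6 CPM). In pericyte-like nuclei 13 of 38 rose and 2 fell, beside 23.6%, with Birc3 at 1.95 (47.9 to 191 CPM). In endothelial-like nuclei 21 of 52 rose and 5 fell, beside 34.1%.

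The second contrast, Enpa-I/R against NS-I/R, shows what differed with enpatoran in reperfused hearts. It uses the same NS-I/R libraries as the comparison above, so the 2 sets of values are not independent of each other. Over all nuclei, Ripk1, Casp8 and Acsl4 were lower with enpatoran and none of the 10 was higher, beside 16.5% of all genes in either direction and 8.74% lower. By class, 2 of 7 genes tested fell in cardiomyocyte-like nuclei, where 18.8% of all genes passed and 11.2% fell. In fibroblast-like nuclei 1 of 8 fell (9.6% of all genes passed, 5.87% fell) and in pericyte-like nuclei 1 of 8 (5.64% and 2.88%), while in neutrophil-like nuclei 1 of 7 rose (1.56% passed, 0.898% rose). None of the 10 passed in endothelial-like, macrophage-like, smooth muscle-like or lymphatic endothelial-like nuclei by edgeR, where 6.23%, 6.15%, 0% and 1.05% of all genes passed. Unadjusted p-values were under 0.05 for 1, 0, 1 and 0 of them, and DESeq2 also called 0 in each.

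In cardiomyocyte-like nuclei Casp8 stood at 1.82, 3.04 and 1.80 CPM in Enpa-I/R, below each of the NS-I/R values of 12, 8.59 and 3.59. It fell by 1.88 on the log2 scale (SE 0.44, edgeR adjusted p = 0.0222), or fell by 2.23 (adjusted p = 2.37e-04) without NS-I/R replicate 3. The 3 Enpa-I/R libraries held 70 Casp8 UMIs in these nuclei, beside 257 in NS-I/R. Ripk1 stood at 21.8, 19.3 and 18.4 CPM in Enpa-I/R, again below each NS-I/R value, and fell by 0.76 (SE 0.17, adjusted p = 0.0198), or fell by 0.92 without replicate 3. For both genes every Enpa-I/R library lay above every NS-Sham library. Casp4 in these nuclei was at 1.08, 2.80 and 1.70 CPM, overlapping NS-I/R, and did not pass.

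Acsl4 in fibroblast-like nuclei was 144, 134 and 142 CPM with enpatoran, below NS-I/R and above NS-Sham in every library. It fell by 0.55 on the log2 scale (SE 0.14, edgeR adjusted p = 0.0338), or fell by 0.69 without NS-I/R replicate 3. Its level with enpatoran in pericyte-like nuclei was 81.3, 127 and 83.0 CPM, where it fell by 0.88 (SE 0.20, adjusted p = 0.0230), or fell by 1.04 without replicate 3. Over all nuclei the falls were 0.56 for Ripk1 (SE 0.15, adjusted p = 0.0359), 0.58 for Casp8 (SE 0.15, adjusted p = 0.0311) and 0.51 for Acsl4 (SE 0.12, adjusted p = 0.0244), and without replicate 3 they were 0.73, 0.66 and 0.63.

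Other genes that passed after I/R did not pass in the contrast with enpatoran. Ripk3 in macrophage-like nuclei was 13.2, 6.98 and 12.5 CPM in Enpa-I/R, overlapping NS-I/R at 21.9, 12.6 and 11.8. Casp4 in pericyte-like nuclei was 65.9, 51.6 and 38.6 CPM, and Gsdmd in fibroblast-like nuclei was 14.2, 9.91 and 18.2 CPM, both overlapping NS-I/R. Ripk3 in endothelial-like nuclei was 6.80, 10.9 and 6.03 CPM beside 14, 13.3 and 8.78, also overlapping. Gsdme in pericyte-like nuclei did not overlap, at 7.21 to 15.3 CPM in Enpa-I/R and 20.9 to 23.6 in NS-I/R. Nor did the same groups in fibroblast-like nuclei for Casp8 (24.8 to 35.3 and 38.5 to 42.6 CPM) or Ripk1 (60.6 to 69.4 and 69.8 to 129 CPM). Mlkl, which had not passed after I/R either, was higher with enpatoran in the endothelial class. It ranged from 47.3 to 51.6 CPM there, beside 38.3 to 46.5 with saline, without overlap. None of these passed, which does not show that the groups were alike.

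The 7 decreases with enpatoran depended on the libraries used and on the clusters. Within cluster 8 of the cardiomyocyte-like nuclei the change was -0.45 for Casp8 (edgeR adjusted p = 0.707) and -0.14 for Ripk1 (0.772), and within cluster 1 of the fibroblast-like nuclei it was 0.013 for Acsl4 (0.981). With the 6 libraries of the contrast fitted alone, none of the 7 passed (edgeR adjusted p 0.0546 to 0.0859). All 7 also missed the threshold without NS-I/R replicate 1 (adjusted p 0.0843 to 0.133), without NS-I/R replicate 2 (0.0741 to 0.139), without Enpa-I/R replicate 1 (0.0591 to 0.114) and without Enpa-I/R replicate 3 (0.0712 to 0.110). Without Enpa-I/R replicate 2, all but Acsl4 in pericyte-like nuclei and Casp8 over all nuclei missed it (0.0521 to 0.126). Ripk1 over all nuclei was also lost without any NS-Sham library (0.0539 to 0.0601), and Acsl4 in fibroblast-like nuclei without NS-Sham replicate 1 or 3 (0.0527 and 0.0560). The direction was lower in all of these fits to fewer libraries.

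**Figure D4:**
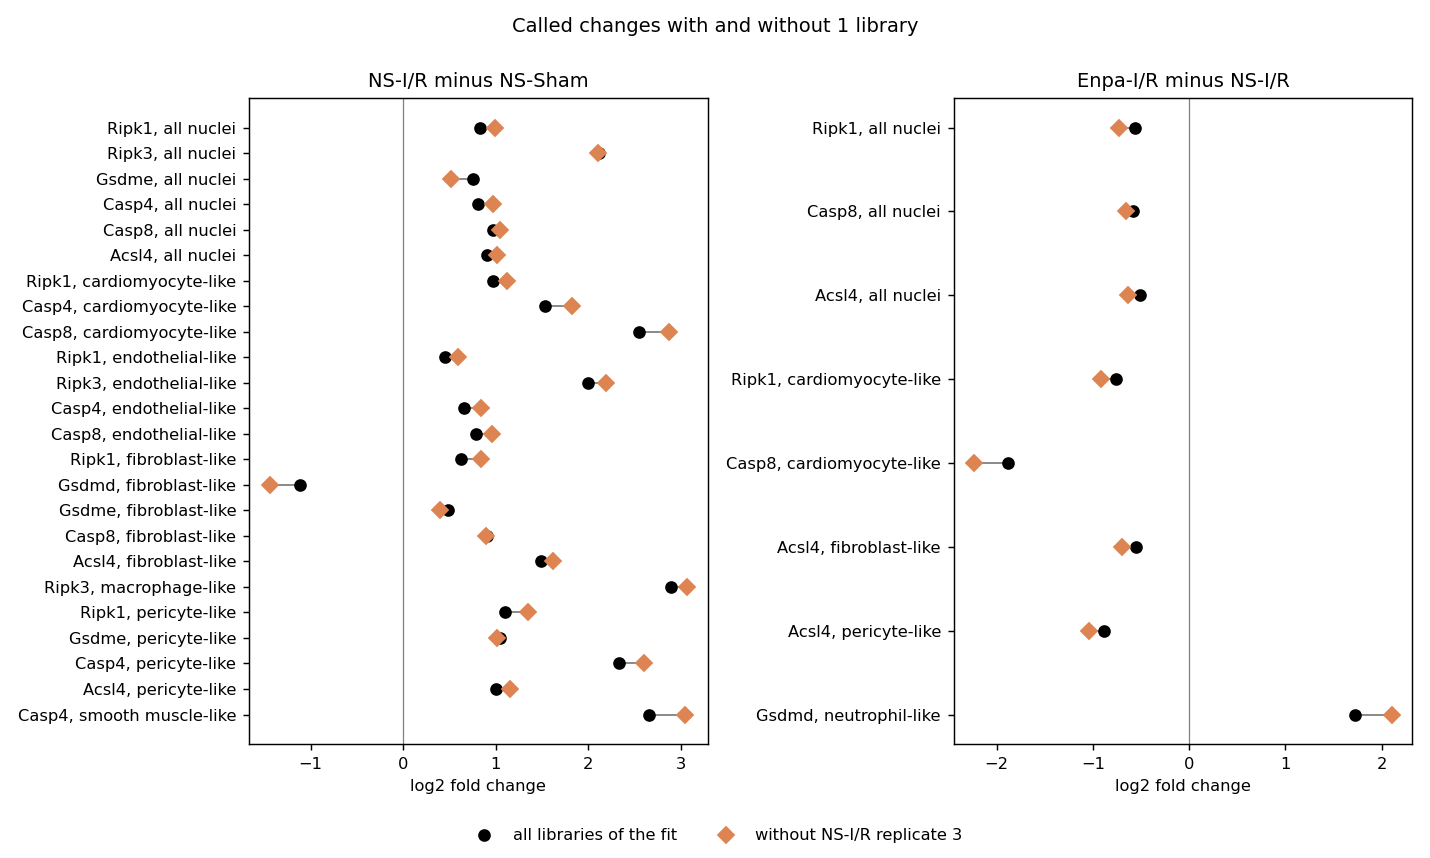
Log2 fold change of every result that passed, with all libraries (black) and without NS-I/R replicate 3 (orange), for I/R minus sham (saline) in the left panel and enpatoran minus saline (I/R) in the right panel. Most orange points lie farther from 0 than the black ones, which the choice of that library builds in, as for Casp8 in cardiomyocyte-like nuclei (2.54 and 2.88, and -1.88 and -2.23), and Gsdme in fibroblast-like nuclei (0.48 and 0.40) is among those that lie nearer.

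Neutrophil-like nuclei were almost absent from NS-Sham (5 nuclei) and were compared between the I/R groups alone, where NS-I/R libraries had 415, 400 and 581 such nuclei and Enpa-I/R libraries 117, 157 and 58. Gsdmd, the pore-former, was 23.0, 34.3 and 52.0 CPM in NS-I/R, whereas Enpa-I/R had 96.2, 121 and 180.4. The groups did not overlap, and the gene rose by 1.72 on the log2 scale (SE 0.38, edgeR adjusted p = 0.0407), or by 2.10 without NS-I/R replicate 3. The counts were small, 14, 18 and 60 UMIs against 14, 29 and 11. The call was lost without each of the other 5 libraries (adjusted p 0.108 to 0.185), and with at least 1000 genes required per nucleus the change was 0.39 (adjusted p = 0.863). The summed neutrophil markers of these nuclei also differed, at 5881 to 7876 CPM in NS-I/R and 12240 to 14610 in Enpa-I/R, as did cardiomyocyte markers in them, at 3271 to 5071 and 5495 to 9104 CPM; their part in the Gsdmd difference was not tested.

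Of the other genes in neutrophil-like nuclei, 6 were tested and none passed, and Ripk3, Mlkl and Casp1 were too sparse to test. Gsdme was 57.4, 70.6 and 148 CPM in NS-I/R, whereas Enpa-I/R had 137, 179 and 246, with overlap, and this was the class with the highest Gsdme mean in both groups. Casp8 was 222, 204 and 152 CPM against 96.2, 87.5 and 0, with no UMI in Enpa-I/R replicate 3 and no overlap (log2 fold change -1.37, adjusted p = 0.110 by edgeR). Acsl4 was 141, 147 and 72.8 CPM against 82.4, 41.7 and 32.8. Gpx4 was 117, 95.3 and 116 CPM against 144, 163 and 180.4, with no overlap (log2 fold change 0.54, SE 0.27, edgeR adjusted p = 0.302). Casp1, the inflammasome protease, had 12, 7 and 6 UMIs in NS-I/R and none in Enpa-I/R, which makes it at least 1.63-fold lower with the group floor set at 3 counts (counting error only).

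**Figure D5:**
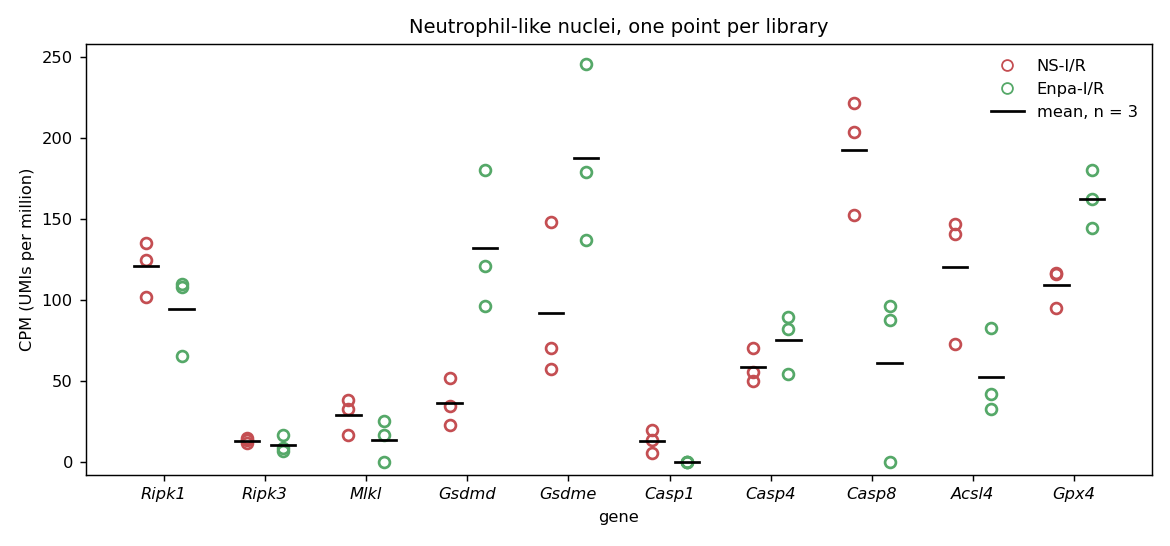
CPM of the 10 genes in neutrophil-like nuclei, with 1 open circle per library for NS-I/R and Enpa-I/R and a line at the mean of 3. The groups separate for Gsdmd, 23.0 to 52.0 against 96.2 to 180.4 CPM, and also for Casp1, Casp8 and Gpx4, and overlap for Ripk1, Ripk3, Mlkl, Gsdme, Casp4 and Acsl4. Only Gsdmd passed the test, and the share of all genes whose groups separate is not given.

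Most pathway list genes that passed in the comparison with enpatoran were lower. The median log2 fold change of tested genes over all nuclei was -0.319 for the 4 lists together and 0.0195 for the necroptosis and death receptor list. Over all nuclei 19 of 61 list genes tested fell and none rose by edgeR, beside 8.74% of all genes falling. Those that fell included Txnrd1 (255 to 87.7 CPM, by 1.54 on the log2 scale), Gclm (80.1 to 27.9 CPM, by 1.52), Nlrp3 (14.6 to 5.07 CPM, by 1.54) and Pycard (19.3 to 6.99 CPM, by 1.47). In cardiomyocyte-like nuclei 16 of 51 fell, beside 11.2% of all genes, with Pycard (18.3 to 3.08 CPM), Gclm (109 to 21.7 CPM), Fas (53.5 to 14.3 CPM) and Hmox1 (20.5 to 6.14 CPM) among them. In macrophage-like nuclei, where 6.15% of all genes passed in either direction, 6 of 53 fell, among them Gsr (456 to 164 CPM), Slc7a11 (207 to 76.5 CPM) and Nlrp3 (112 to 60.2 CPM), while the inflammasome sensor Nlrp1b (112 to 244 CPM) and the cytokine Il18 (29.3 to 54.9 CPM) rose. In fibroblast-like nuclei 8 of 53 fell, beside 5.87% of all genes, with Ptgs2 going from 101 to 24.8 CPM. With the 6 libraries of the contrast alone, the counts were 4 over all nuclei, 6 in cardiomyocyte-like and 0 in fibroblast-like nuclei.

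Across the 7 classes and 9 libraries, the genes whose pattern was most like that of a member were found by Pearson's correlation of log2(CPM + 1) over 63 points among 12341 genes. Casp8 was most like Ptbp3 (r = 0.952), Casp4 most like Med13l (0.934), Ripk1 most like Tbk1, a kinase of innate immune signalling (0.914), and Casp1 most like Pik3r5 and Naip5 (0.902 each). Gsdme was most like Mpp6 (0.765), the gene it overlaps on the opposite strand. Ripk3, the scarcest, had the lowest value, 0.675 with Spen. The points share libraries and classes, so these values describe the pattern and carry no test.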

How the data were processed

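The 10 genes and the pathway lists were chosen with earlier results of these data known. Flash-frozen hearts were powdered, nuclei were isolated on an iodixanol barrier and libraries were made with 10x Chromium 3′ chemistry v3.1, per the labels' protocols. The deposited values were raw UMI counts per gene and barcode, written by Cell Ranger 8.0.0 per the file headers, while the submitters' processing notes name Cell Ranger 6.1.1 and the builds GRCm39 and GRCh38 without a role. Whether counting used strand is not given in the sources used here.

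From these counts, nuclei with at least 500 genes and at most 5% mitochondrial UMIs were kept, and the top Scrublet scores were removed as doublets (0.8% per 1000 barcodes, since Scrublet's own threshold called almost none in most libraries). They were clustered with scanpy 1.11.5 (2000 variable genes, 30 components, 15 neighbours, Leiden resolution 1). Clusters were named "-like" from at least 3 markers, so the classes are rebuilt and may differ from the authors'. Sums of counts per class and library were tested over all genes with edgeR 4.0.16 (TMM, filterByExpr, quasi-likelihood) and Benjamini-Hochberg adjustment, in 1 fit over 9 libraries (6 for neutrophil-like nuclei). The rule for named pathway genes was up to 3 per list with the largest change among those that passed and reached 10 CPM in a group, and the text gives a part of these. DESeq2 1.42.0 and other filters were alternatives. On simulated data for Enpa-I/R minus NS-I/R, with 200 genes changed by a log2 of 1, 52.0% were recovered over all nuclei (18066 genes), 38.5% in cardiomyocyte-like (13984), 60.0% in endothelial-like (12463), 62.5% in fibroblast-like (13419), 54.5% in macrophage-like (10414), 50.5% in pericyte-like (9380), 32.5% in lymphatic endothelial-like (5531) and 19.0% in smooth muscle-like nuclei (6964). Same-numbered NS-Sham and NS-I/R libraries deviated together slightly over 9638 genes (r = 0.102, 0.113 and 0.112), so the replicate number was also fitted as a block. Different-numbered libraries of those groups ranged from -0.187 to 0.0719, but NS-I/R replicate 2 with Enpa-I/R replicate 1 reached 0.215. A shared number is therefore not shown to be a pairing. Of 32285 gene IDs, 32158 matched GENCODE M21. Intervals and floors cover counting error only.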

Additional observations from a re-analysis of the deposited data

How the results depend on the processing

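Of the alternatives for single genes, 481 kept direction and call, 101 lost the call and 3 changed sign, all 3 within 1 cluster: Ripk1 in cardiomyocyte-like nuclei (-0.085) and Gsdme in fibroblast-like nuclei (-0.11) after I/R, and Acsl4 in fibroblast-like nuclei with enpatoran (0.013). The causes of the changes below were not tested. Counts that follow are of the 10 genes, then of the pathway lists, that passed. They stand without the share of all genes that passed under each setting, and nothing particular to these genes is read from them.

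With the 6 libraries of the contrast, enpatoran gave 0 genes over all nuclei, 0 in cardiomyocyte-like, 0 in fibroblast-like and 0 in pericyte-like nuclei, and 4, 6, 0 and 1 list genes over all, cardiomyocyte-like, fibroblast-like and lymphatic endothelial-like nuclei; I/R gave 1 list gene in lymphatic endothelial-like and 4 in smooth muscle-like nuclei. DESeq2 gave 2 genes in fibroblast-like nuclei with enpatoran and 2 in smooth muscle-like after I/R, and 1 list gene in lymphatic endothelial-like after I/R and 2 and 3 in neutrophil-like and smooth muscle-like nuclei with enpatoran. Leiden resolution 2 gave 0 and 0 in neutrophil-like nuclei. With doublets kept, fibroblast-like nuclei with enpatoran had 2, neutrophil-like 0 and smooth muscle-like after I/R 2, and lymphatic endothelial-like nuclei had 1 list gene with enpatoran and 6 after I/R. With at least 1000 genes, list counts were 1 in lymphatic endothelial-like and 4 in smooth muscle-like nuclei after I/R, and with enpatoran 5 in macrophage-like and, for neutrophil-like nuclei, 0, while macrophage-like nuclei had 2 genes after I/R and neutrophil-like 0. A mitochondrial limit of 20% gave 5 list genes in lymphatic endothelial-like and 2 genes in smooth muscle-like nuclei after I/R, and 0 in neutrophil-like nuclei. Without a low-count filter, enpatoran gave 1 gene in endothelial-like, 2 in fibroblast-like and 2 in neutrophil-like nuclei, with 19, 1, 4 and 5 list genes in fibroblast-like, lymphatic endothelial-like, neutrophil-like and smooth muscle-like nuclei; I/R gave 2 genes in macrophage-like, 2 in smooth muscle-like and 6 list genes in lymphatic endothelial-like nuclei.

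The replicate block gave 3 genes and 4 list genes in neutrophil-like nuclei and 1 list gene in lymphatic endothelial-like nuclei with enpatoran, and removed the pericyte Gsdme call after I/R (adjusted p = 0.0664); it ended no other call of the 10 genes. Same-numbered NS-I/R and Enpa-I/R libraries did not deviate together (r = -0.0686, -0.273 and -0.144), so there the samples share only a number. Within cluster 0 (endothelial-like), I/R gave 0 genes and 13 list genes and enpatoran 1 list gene. Within cluster 1 (fibroblast-like) I/R gave 1 and 12, and enpatoran 0 and 3. Within cluster 8 (cardiomyocyte-like) I/R gave 0 and 8, and enpatoran 0 and 2. Within cluster 5 (macrophage-like) list counts were 18 after I/R and 2 with enpatoran.

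Without thinning, the shares, for NS-Sham, then NS-I/R, then Enpa-I/R, were 1.21%, 6.0% and 2.02% for Casp8 and 12.7%, 22.7% and 15.7% for Ripk1 in cardiomyocyte-like nuclei, 16.4%, 33.9% and 29.8% for Acsl4 in fibroblast-like, 2.44%, 11.7% and 7.04% for Casp4 in pericyte-like, and 13.4%, 20.9% and 16.9% for Casp8 in endothelial-like nuclei.

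Leaving out 1 library, I/R gave 6 to 7 of the 10 genes over all nuclei, 2 to 4 in cardiomyocyte-like, 2 to 6 in endothelial-like, 3 to 6 in fibroblast-like, 0 to 1 in lymphatic endothelial-like, 1 to 3 in macrophage-like, 2 to 4 in pericyte-like and 1 to 2 in smooth muscle-like nuclei. Enpatoran gave 0 to 5, 0 to 3, 0 to 4, 0 to 3, 0 to 0, 0 to 1, 0 to 3 and 0 to 1 in that order, and 0 to 4 in neutrophil-like nuclei. List counts, in the same order, were 30 to 43, 20 to 36, 20 to 28, 26 to 35, 1 to 7, 27 to 32, 12 to 18 and 3 to 7 after I/R, and 1 to 38, 4 to 29, 0 to 22, 0 to 22, 0 to 2, 3 to 15, 0 to 13 and 0 to 7 with enpatoran, and 0 to 11 in neutrophil-like nuclei. Lymphatic endothelial-like and smooth muscle-like sums held at most 325857 and 652269 UMIs in a library.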

Other observations

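Some of the 10 genes were also measured in classes too small for a test, where values are pooled over the libraries of a group. In Schwann-like nuclei Casp4 stood at 13.7, 111 and 57.3 CPM, for NS-Sham, then NS-I/R, then Enpa-I/R, and Ripk1 at 27.3, 67.2 and 70.5. In mesothelial-like nuclei Acsl4 stood at 124, 503 and 124 CPM, with NS-I/R libraries between 129 and 856. In T and NK-like nuclei Casp8 stood at 187, 172 and 279 CPM, and in B-like nuclei at 152, 162 and 120 CPM.

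The 1 unnamed cluster, led by the heat shock and stress genes Hspa1a, Hspa1b, Egr1 and Hsph1, held 414 nuclei in NS-I/R, 10 in Enpa-I/R and none in NS-Sham. NS-I/R replicates 1 to 3 gave 285, 95 and 34 of these nuclei, so most came from replicate 1. In NS-I/R the cluster held Ripk1 at 231 CPM (200 UMIs), Casp8 at 146 CPM, Casp4 at 100.4 CPM, Gpx4 at 73.8 CPM and Mlkl at 49.6 CPM, and no Casp1 UMI.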
